A study of Ictidomys tridecemlineatus with 31 samples.

Results

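The genes described here are 8 of the 12863 in a table of kidney RNA from the 13-lined ground squirrel, a hibernating rodent. They carry, or control, salt uptake in the thick ascending limb and the distal convoluted tubule, and each was chosen by name and matched by its symbol, with case ignored. The table lists them as Slc12a1 (gene795), Umod (gene7237), Bsnd (gene9328), Slc12a3 (gene2244), Wnk1 (gene16490), Wnk4 (gene5605), Stk39 (gene54) and Oxsr1 (gene1535). All 8 were present, and all 8 symbols also occur in the RefSeq annotation of this species.

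Kidneys of 31 animals, 17 females and 14 males, were compared to ask how gene expression changes over the year and over the cycle of torpor and arousal. Summer active (SA, 5 animals) and spring dark (SpD, 5) animals held a warm body temperature, SA while fattening in August and SpD after hibernation while still kept in the hibernaculum. The other 4 states came from the hibernation season and were assigned by body temperature, namely interbout aroused (IBA, 5, rewarmed between torpor bouts), entrance (Ent, 5, cooling into torpor), early arousing (EAr, 5, starting to rewarm) and late arousing (LAr, 6, further through rewarming). Each library was made from polyadenylated RNA of a fragment of frozen kidney from a single animal, after the blood had been cleared by perfusion.

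In the thick ascending limb, the apical Na-K-2Cl cotransporter takes salt out of the tubule without water, and chloride leaves through basolateral channels that need barttin. In the distal convoluted tubule the thiazide-sensitive Na-Cl cotransporter does the same work. Both carriers are switched on by the kinases SPAK (Stk39) and OSR1 (Oxsr1), which are in turn switched on by WNK kinases that sense chloride and potassium. Mutations in several of these genes, among them both cotransporters, Bsnd, Wnk1 and Wnk4, cause inherited disorders of salt balance or blood pressure.

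Values are batch-corrected regularized log (rlog) values on the log2 scale, so that a difference of 1 is a doubling. They ran from 4.11 to 19.79 over all genes, and the median of an animal lay between 9.74 and 9.88. Sequencing depth is unknown, and levels were not compared between genes because the values are not scaled to transcript length. Experiment 1 (9 animals, TruSeq libraries) held 3 animals each of IBA, Ent and SpD, and experiment 2 (22 animals, Nugen libraries) held the rest, so SA, EAr and LAr came from experiment 2 alone. K113 (LAr) and K137 (SA) stand apart from their groups and were left out of the study's differential expression test, and K130 (SpD) stood apart for several of the 8 genes. Results are therefore given for 29 animals (without K113 and K137), with 31 (all) and 28 (also without K130) where these differ. All 10 listed proximal tubule markers were in the table, as were both thick limb markers, Slc12a1 and Umod, and 3 of 4 distal convoluted tubule markers. In whole tissue, fewer cells of a type and less RNA per cell cannot be told apart.

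None of the 8 genes passed q under 0.001 across the 6 states. Here q is limma's Benjamini-Hochberg adjusted p in a model of state, sex and experiment. Of all genes, 9.34% passed that threshold in 29 animals, 5.58% in 31 and 9.24% in 28. The study used the same cutoff with another test, DESeq2 on uncorrected counts, which called a larger share of its genes. Whether the 8 genes passed in that test is therefore not shown by these values. At q under 0.05, 1 of the 8 genes passed in 29 animals, against 46.1% of all genes. That gene was Bsnd, with q = 0.0144. Its q was 0.157 in 31 animals and 0.0543 in 28, so 0 of 8 passed there, against 32.8% and 42.2% of all genes. Without adjustment, 1 of the 8 passed p under 0.05 in 29 animals and 2 in 31 or 28. The shares of all genes at p under 0.05 are at least those at q under 0.05. These counts were not tested against those of all genes. In experiment 2 alone 4 of 8 passed q under 0.05, against 53.1% of all genes, namely Stk39 (q = 0.0141), Bsnd (0.0188), Umod (0.0415) and Slc12a3 (0.0491). In that fit SpD is K130 and K84 only. With animal weights Bsnd and Wnk4 passed, 2 of 8 against 59.9%, and with Slc14a2, a marker described below, as a covariate Slc12a1 and Umod, 2 of 8 against 42.8%. The other q values in 29 animals were 0.0949 for Slc12a1, 0.103 for Stk39, 0.12 for Umod, 0.156 for Wnk4, 0.285 for Slc12a3, 0.382 for Oxsr1 and 0.458 for Wnk1.

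Animals of the same state differed widely in most of these genes. The pooled SD within states was 0.54 for Slc12a1, 0.53 for Umod and 0.59 for Slc12a3, and 97.6%, 97.5% and 98.2% of all genes had a smaller one. It was 0.32 for Bsnd, 0.31 for Wnk1, 0.29 for Wnk4 and 0.25 for Stk39, all above the median gene at 0.16. Oxsr1 was the exception, with an SD of 0.09 and only 8.1% of genes below it. Ordered by their means, neighbouring states lay within their pooled SD in 37 of the 40 pairs of neighbours. Ordering the means keeps such gaps small, and the count was not made for all genes. It therefore does not show that states far apart in the order are alike. For Slc12a1 the state means spanned 0.98 from lowest to highest, against its SD of 0.54.

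**Figure D1:**
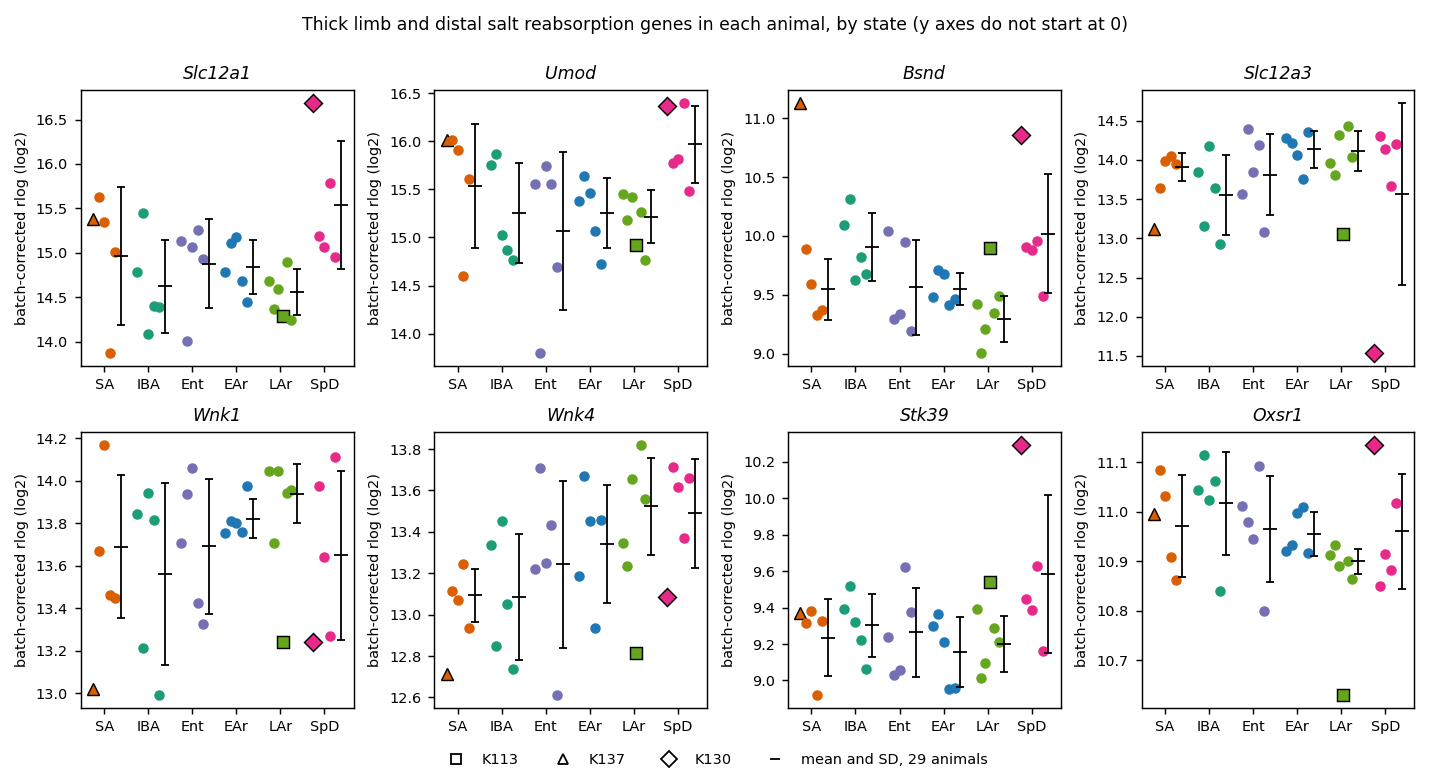
Level of each gene in each of the 31 animals, as batch-corrected rlog (log2, vertical axis) by state (horizontal axis). Points are animals, outlined symbols mark K113, K137 and K130, and bars give the mean and SD of the 29 animals; most states overlap, the SpD animals lie above the LAr animals for Slc12a1 and Umod, and K130 lies at 16.69 for Slc12a1 and 11.54 for Slc12a3.

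Slc12a1, the Na-K-2Cl cotransporter of the thick limb, had its highest mean in SpD and its lowest in LAr. It read 13.87, 15.01, 15.34 and 15.63 in SA (K137 15.38) and 14.95, 15.07, 15.2, 15.78 and 16.69 in SpD, the last being K130. In IBA it read 14.09, 14.39, 14.4, 14.79 and 15.45, and in Ent 14, 14.93, 15.07, 15.14 and 15.26. The arousing animals read 14.45, 14.68, 14.79, 15.11 and 15.17 in EAr and 14.24, 14.37, 14.6, 14.68 and 14.9 in LAr (K113 14.29). Every SpD animal was above every LAr animal, with or without K113 and K130, while SA reached from K140, the lowest of all animals, to 15.63. State means in 29 animals spanned 0.98, or 1.97-fold, from 14.56 ± 0.26 (SD, n = 5) in LAr to 15.54 ± 0.72 (SD, n = 5) in SpD, and 0.69 in 28.

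Umod encodes uromodulin, the abundant urinary protein secreted by thick limb cells. Its SA levels were 14.6, 15.61, 15.91 and 16.01 (K137 16.01) and its SpD levels 15.48, 15.77, 15.82, 16.37 and 16.4. IBA animals had 14.77, 14.87, 15.02, 15.75 and 15.87, and Ent animals 13.8, 14.69, 15.55, 15.56 and 15.75. Levels were 14.72, 15.07, 15.38, 15.46 and 15.64 in EAr and 14.77, 15.18, 15.26, 15.42 and 15.45 in LAr (K113 14.92). As with Slc12a1, SpD did not overlap LAr, K140 was the low animal of SA, and K167 the low animal of Ent. The highest state mean was 15.97 ± 0.40 (SD, n = 5) in SpD and the lowest 15.07 ± 0.82 (SD, n = 5) in Ent.

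Bsnd encodes barttin, a chloride channel subunit of the thick limb and distal nephron. It read 9.33, 9.37, 9.59 and 9.89 in SA and 9.49, 9.88, 9.91, 9.95 and 10.86 in SpD, where K130 was again highest. K137 read 11.13, above all other animals, and K113 read 9.9. IBA held 9.63, 9.68, 9.82, 10.09 and 10.31, against 9.01, 9.21, 9.35, 9.42 and 9.49 in LAr. These groups did not overlap in 29 animals, whereas K113 lay inside the IBA range. Ent read 9.2, 9.29, 9.33, 9.95 and 10.04, a split into low and high animals, and EAr was tight at 9.42 to 9.71. State means ran from 9.30 ± 0.19 (SD, n = 5) in LAr to 10.02 ± 0.50 (SD, n = 5) in SpD.

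Slc12a3, the Na-Cl cotransporter of the distal convoluted tubule, showed no such order. Levels were 13.64, 13.94, 13.99 and 14.05 in SA (K137 13.13) and 11.54, 13.67, 14.13, 14.2 and 14.3 in SpD. In IBA they were 12.93, 13.15, 13.64, 13.85 and 14.18, and in Ent 13.08, 13.57, 13.85, 14.19 and 14.39. EAr ran from 13.76 to 14.36 with a median of 14.21, and LAr from 13.81 to 14.43 with a median of 14.03 (K113 13.06). The value of 11.54 was K130, the animal with the most Slc12a1 had the least Slc12a3, and the other 30 animals lay between 12.93 and 14.43. With K130 the SpD mean was 13.57 ± 1.16 (SD, n = 5) and without it 14.08 ± 0.28 (SD, n = 4).

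Wnk4 and Wnk1, the upstream kinases, had their highest means in LAr in 29 animals, and Wnk4 had its highest in SpD in 31 and 28. Wnk4 read 12.94, 13.07, 13.11 and 13.25 in SA (K137 12.71) and 13.09, 13.37, 13.62, 13.66 and 13.71 in SpD, with K130 lowest. Without K130 the SpD animals were all above the SA animals, for 1 of the 8 genes against 12.0% of all genes, but the difference of SA minus SpD, -0.62 ± 0.23 (SE), had q = 0.143 (limma). LAr ran from 13.24 to 13.82, with K113 at 12.82, and IBA from 12.74 to 13.45. Wnk1, which is also made outside the distal nephron, was nearly constant in EAr, from 13.75 to 13.98, and spread over 12.99 to 13.94 in IBA and 13.24 to 14.11 in SpD.

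Stk39, the kinase SPAK, read 9.16, 9.38, 9.45, 9.63 and 10.3 in SpD, the last being K130. In the other states of the 29 animals it lay between 8.92 and 9.62. Oxsr1, the related kinase OSR1, moved least, with state means from 10.90 ± 0.03 (SD, n = 5) in LAr to 11.02 ± 0.10 (SD, n = 5) in IBA, a span of 1.08-fold. K113 held the lowest Oxsr1 level, 10.63, and K130 the highest, 11.14.

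The study's 7 pairs of states, and a contrast of seasons added here, gave no call among the 8 genes at q under 0.001 in any of them. Among all genes the shares called were 3.15% in IBA minus SA, 1.25% in SpD minus IBA, 0.0544% in SA minus SpD, 0.746% in Ent minus IBA, 0.132% in EAr minus Ent, 0.295% in LAr minus EAr, 1.43% in IBA minus LAr and 9.73% between seasons. Before adjustment, p was under 0.05 for 1, 3, 2, 0, 0, 0, 4 and 2 of the 8 genes in the same order. The shares of all genes at p under 0.05 were 36.3%, 26.6%, 29.1%, 29.4%, 7.16%, 8.33%, 33.4% and 43.4%. At q under 0.05 the shares of all genes were 22.9%, 11.9%, 10.5%, 13.1%, 0.257%, 0.575%, 18.0% and 33.4%, and 1 of the 8 genes passed in each of the last 2 only. In experiment 2 alone 4 of 8 genes passed in SA minus SpD, against 26.4% of all genes, the lowest q being 0.00942 for Stk39. The SpD animals of that fit were K130 and K84 only. In 28 animals, without K130, 0 of 8 genes passed q under 0.05 in SA minus SpD, against 95 of all 12863 genes. These comparisons share animals, so their results are not independent of each other.

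Bsnd was the gene that passed in IBA minus LAr, at 0.79 ± 0.21 (SE) higher in IBA, 95% interval 0.36 to 1.23, q = 0.0121 (limma). It was also the 1 gene of 8 without overlap between these states, against 13.7% of all genes. The difference was 0.69 with q = 0.133 in 31 animals, where 0 of 8 passed against 8.43% of all genes. In 28 animals it was 0.68 with q = 0.0126, 1 of 8 against 16.0%. Leaving out K104, the highest IBA animal, gave 0.7 and q = 0.0577, and adding the level of Slc14a2, described below, gave 0.35 and q = 0.259. In experiment 2 alone, which holds all LAr but only 2 IBA animals, the difference was 0.71 with q = 0.0962, and 0 of 8 genes passed against 7.49% of all genes. With animal weights Bsnd had q = 0.00118, and 3 of 8 passed against 30.6%. Before adjustment 4 of 8 genes passed p under 0.05 in 29 animals, against 33.4% of all genes. Beside Bsnd these were Oxsr1, Wnk1 and Wnk4, with 95% intervals of 0.03 to 0.30, -0.90 to -0.01 and -0.84 to -0.01. That of Slc12a3 was -1.60 to 0.0025.

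Slc12a1 and Umod were both higher in SpD than in IBA before adjustment. The differences were 0.91 ± 0.32 (SE), q = 0.0639, and 0.71 ± 0.30 (SE), q = 0.122, by limma. In 28 animals they were 0.57 and 0.52, with q = 0.205 and q = 0.277. Wnk4 was 0.40 ± 0.18 (SE) higher in SpD with q = 0.149, and in 28 animals 0.54 ± 0.18 (SE) with q = 0.0497. It was then the 1 gene of 8 at q under 0.05, against 14.0% of all genes, as it was with animal weights (q = 0.0179), against 23.2%. In 29 animals no gene of the 8 passed p under 0.05 in Ent minus IBA, EAr minus Ent or LAr minus EAr. The shares of all genes there were 29.4%, 7.16% and 8.33%. In 28 animals Bsnd did so in Ent minus IBA, at -0.34 ± 0.16 (SE), q = 0.136 (limma), and with animal weights its q was 0.0295, 1 of 8 against 31.3% of all genes. The intervals in 29 animals still allowed changes of some size, for example -0.93 to 0.57 for Slc12a1 and -0.20 to 1.42 for Slc12a3 in EAr minus Ent, while those of Oxsr1 in the 3 pairs ran from -0.20 at the lowest to 0.08 at the highest.

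**Figure D2:**
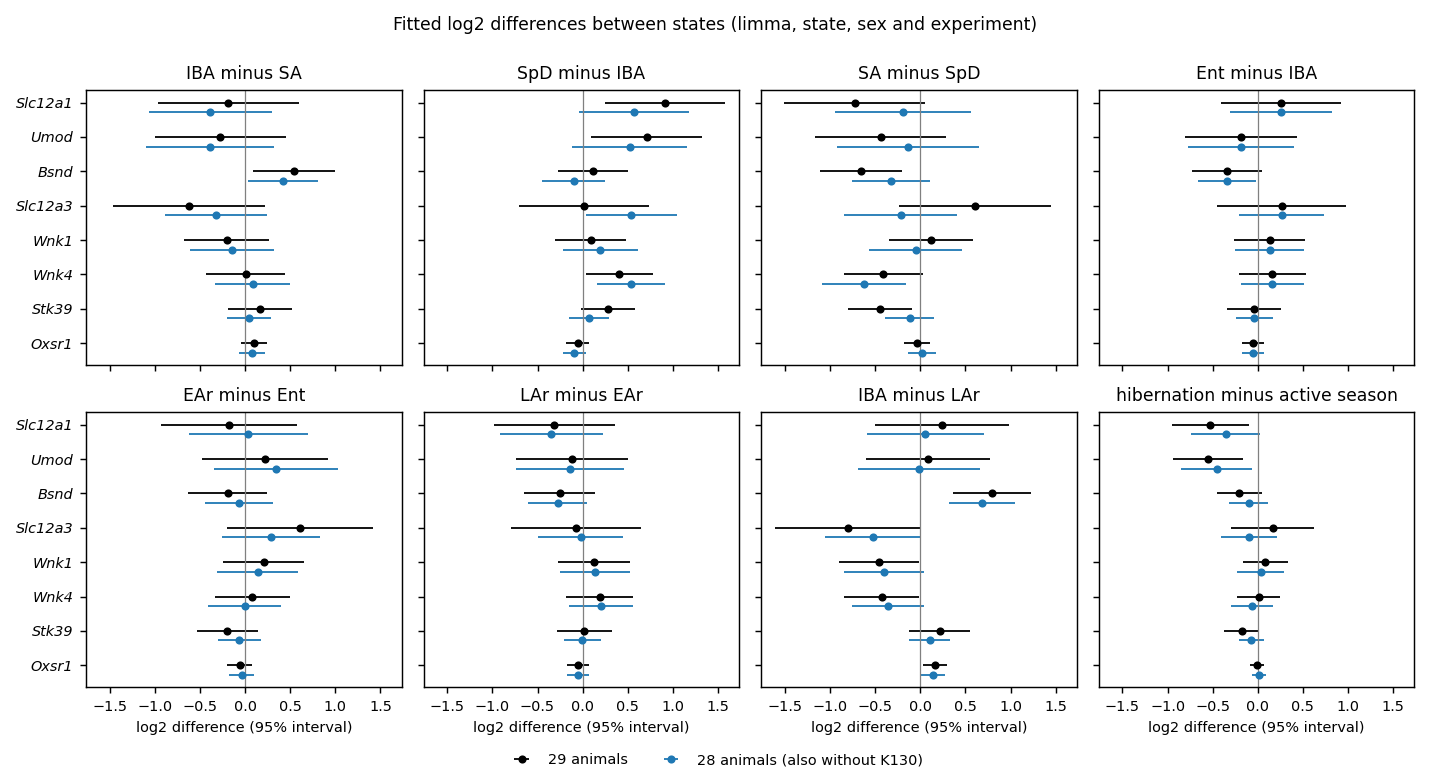
Fitted log2 difference (horizontal axis) with its 95% interval for each of the 8 genes in the 7 pairs of states and between seasons, in 29 animals (black) and 28 (blue). Most intervals cross 0, Bsnd in IBA minus LAr lies to the right of 0 in both sets, and Slc12a1 and Slc12a3 shift most when K130 is left out.

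Between seasons, the mean of the 4 hibernation states was set against the mean of SA and SpD. Umod ran from 14.6 to 16.4 (median 15.82) in the 9 active animals and from 13.8 to 15.87 (median 15.32) in the 20 hibernation animals, so the groups overlapped. Umod was lower in hibernation by 0.55 ± 0.19 (SE; difference -0.55, 95% interval -0.94 to -0.16), q = 0.0281 (limma). Slc12a1 differed by -0.53 ± 0.21 (SE) with q = 0.0508 in 29 animals, -0.57 with q = 0.028 in 31, and -0.36 with q = 0.141 in 28. For Umod these values were -0.58 with q = 0.0157 in 31 and -0.46 with q = 0.0694 in 28. Thus 2 of the 8 genes passed in 31 animals, against 28.8% of all genes, and 0 of 8 in 28, against 32.9%. Leaving out K138, K139 or K84 also took Umod past q of 0.05, to 0.1, 0.0604 and 0.0552, and animal weights took it to 0.128 (difference -0.39), with 0 of 8 genes passing against 38.4% of all genes. In the other direction, leaving out K140 gave q = 0.00855 for Slc12a1 and 2 of 8 genes passing, against 4075 of all 12863 genes. Experiment 2 alone gave Umod -0.88 with q = 0.0067 and 5 of 8 genes passing, against 39.0% of all genes. In experiment 2 the SpD state is K130 and K84 only. Stk39 differed by -0.18 ± 0.09 (SE) and Bsnd by -0.20 ± 0.12 (SE), neither past q of 0.05. Slc12a3, at 0.16 ± 0.22 (SE), Wnk1, at 0.08 ± 0.12 (SE), Wnk4, at 0.01 ± 0.11 (SE), and Oxsr1, at -0.01 ± 0.04 (SE), were near 0, with 95% intervals of -0.29 to 0.62, -0.17 to 0.34, -0.23 to 0.24 and -0.08 to 0.07.

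The other 8 pairs of states were compared after the values had been seen, and 2 of them gave calls at q under 0.05. In SpD minus LAr 3 of the 8 genes passed, against 19.1% of all genes. Slc12a1 was 1.15 ± 0.36 (SE) higher in SpD (q = 0.028), Bsnd 0.91 ± 0.21 (SE; q = 0.00503) and Stk39 0.50 ± 0.16 (SE; q = 0.0351), by limma. In SpD minus EAr 2 passed, against 19.2%, Bsnd at 0.65 ± 0.21 (SE; q = 0.034) and Stk39 at 0.51 ± 0.16 (SE; q = 0.0312). No overlap between SpD and LAr was seen for 2 of the 8 genes, Slc12a1 and Umod, against 12.0% of all genes. In experiment 2 alone, with K130 and K84 as the SpD animals, these 5 calls had q from 0.00244 to 0.0127. All 5 calls were lost without K130, where the differences were 0.63, 0.59 and 0.17 against LAr and 0.31 and 0.17 against EAr. In those 28 animals 0 of 8 passed in either pair, against 7.05% and 8.41% of all genes, and in 31 animals 1 of 8 passed in each, against 12.3% and 13.4%. Without K84, K111 or K116 the Slc12a1 call was lost (q from 0.0564 to 0.0708), and without K84, K111 or K112 that of Stk39 against LAr (q from 0.0562 to 0.0894). Against EAr, Bsnd was lost without K154, K158 or K165 (q from 0.0598 to 0.0674) and Stk39 without K158 or K165 (q of 0.0668 and 0.0629). In the other 6 pairs 0 of 8 passed, against 14.8% of all genes in Ent minus SA, 24.1% in EAr minus SA, 27.4% in LAr minus SA, 0.762% in LAr minus Ent, 17.7% in IBA minus EAr and 10.6% in SpD minus Ent.

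The thick limb genes moved with a marker of the inner medulla. Slc14a2, the urea transporter of the inner medullary collecting duct and thin descending limb, spread from 6.11 to 12.99 over the 29 animals. It read 6.31 to 6.91 in LAr and 8.38 to 12.99 in SpD, without overlap, and 6.67 to 12.24 in IBA. Over the 29 animals its Pearson's r was 0.86 with Slc12a1, 0.79 with Bsnd, 0.76 with Umod and 0.73 with Stk39, and 0.84, 0.74, 0.72 and 0.67 over 28. With Slc12a3 it was -0.53, and -0.35 over 28. The summed level of the 6 inner medulla and thin limb markers, Slc14a2 among them, had r of -0.54 with Slc12a3 over 29 animals and -0.07 over 28. With Slc12a1, Bsnd, Umod and Stk39 its r was 0.77, 0.83, 0.68 and 0.79 over 29, and 0.62, 0.72, 0.65 and 0.60 over 28. The points share libraries and states, so these are descriptions. With Slc14a2 as a covariate, Slc12a1 in SpD minus LAr turned from 1.15 to -0.19, Bsnd went from 0.91 to 0.28 and Stk39 from 0.50 to 0.03. Because Slc14a2 did not overlap between SpD and LAr, that fit cannot tell state and marker apart in this pair, and no conclusion is drawn from these changes. Umod between seasons went from -0.55 to -0.23 (q = 0.169). Slc12a1 in SpD minus IBA went from 0.91 to 0.52 and its q from 0.0639 to 0.0214, 1 of 8 genes against 14.4% of all genes. In IBA minus LAr with this covariate Slc12a1 passed in place of Bsnd (q = 0.0272), 1 of 8 against 4.99%, and between seasons 0 of 8 passed against 31.3%. In that fit Slc12a1 was lower in IBA than in LAr, whereas without the covariate it was higher in IBA, so this difference also changed sign. The summed level of the 10 proximal tubule markers, which mark the cortex and outer stripe, had r of 0.79 with Slc12a3 and -0.42 with Slc12a1 over 29 animals, and 0.64 and -0.10 over 28, so the latter rested on K130. The part of the sampled piece of kidney in these values was not tested.

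K130, K113 and K137 departed from their groups in a similar way. In K130 Slc12a3 was 2.54 below the mean of the other 4 SpD animals, a difference of -2.54, while Slc12a1 was 1.44, Bsnd 1.05 and Stk39 0.89 above it. Its Umod, at 16.37, was within their range of 15.48 to 16.4. Bsnd was 1.58 above the other SA animals in K137 and 0.60 above the other LAr animals in K113. Slc12a3, Wnk1 and Wnk4 were below the range of the other animals of the state in all 3, and Bsnd above it in all 3. How many of all genes lay outside the range in all 3 was not computed. Slc12a1 and Umod lay within the range in K113 and K137. Oxsr1 was below the range in K113 (-0.27 from the mean), above it in K130 (0.22) and within it in K137. In the same animals the summed proximal tubule markers differed from the group mean by -1.80 (K130), -1.11 (K137) and -1.02 (K113), and the 6 inner medulla and thin limb markers by 0.88, 1.37 and 1.04. Slc14a2 was higher by 3.21, 4.74 and 6.34.

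**Figure D3:**
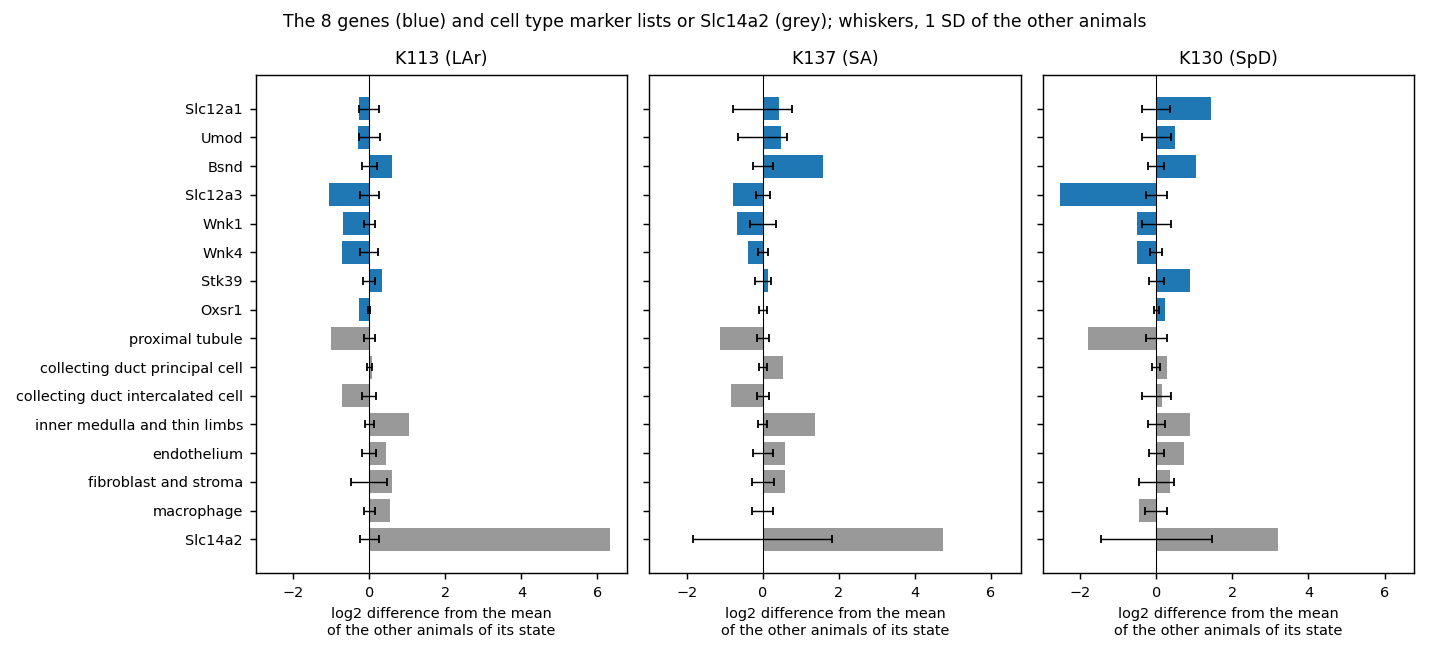
Difference of K113, K137 and K130 from the mean of the other animals of their state (log2, horizontal axis) for the 8 genes (blue) and for summed marker lists and Slc14a2 (grey), with whiskers of 1 SD of the other animals. Slc12a3 bars point left and Bsnd bars right in all 3 animals, beside fewer proximal tubule and more inner medulla transcripts.

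Over the 29 animals Pearson's r was 0.85 (Spearman's rho 0.88) between Slc12a1 and Umod, 0.81 (0.70) between Slc12a1 and Stk39, and 0.78 (0.66) between Bsnd and Stk39. Slc12a3 had r of 0.65 (rho 0.83) with Wnk4 and 0.66 (rho 0.58) with Wnk1. Slc12a1 and Umod held together without K130 and K140, the animals farthest from the median of Slc12a1, at 0.85, and within experiment 1 (n = 9) and experiment 2 (n = 20) at 0.69 and 0.89. Slc12a3 and Wnk4 did so as well, at 0.84 over 28 animals, 0.97 in experiment 1 and 0.53 in experiment 2 (0.74 there without K130). Other pairs differed between experiments. In experiment 1 Umod had r of 0.87 with Wnk4 and 0.85 with Slc12a3, both above its 0.69 with Slc12a1, against -0.44 and -0.58 in experiment 2, and Slc12a1 with Bsnd had 0.01 in experiment 1 and 0.82 in experiment 2. Between the cotransporters the relation had no stable sign. Slc12a1 and Slc12a3 had r of -0.55 over 29 animals and -0.20 over 28, with 0.69 in experiment 1 and -0.75 in experiment 2 (-0.54 there without K130). Bsnd and Slc12a3 likewise went from -0.59 to -0.27 over 28, with 0.45 and -0.84 in the 2 experiments.

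**Figure D4:**
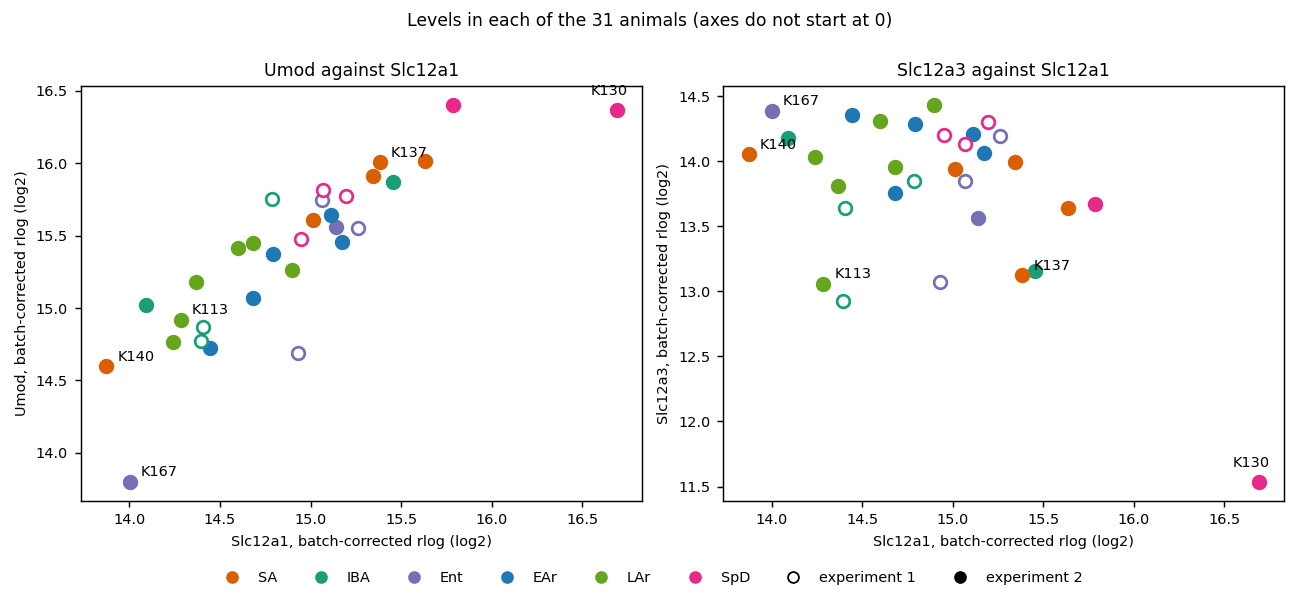
Umod (left) and Slc12a3 (right) against Slc12a1 in each of the 31 animals, all as batch-corrected rlog (log2), coloured by state, with open points for experiment 1. Umod rises along Slc12a1 in both experiments, while Slc12a3 shows no common slope and K130 lies alone at the lower right.

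The difference of Slc12a3 minus Slc12a1 within an animal had means of -1.06 ± 0.91 (SD, n = 4) in SA, -1.07 ± 0.88 in IBA, -1.07 ± 0.87 in Ent, -0.70 ± 0.41 in EAr and -0.45 ± 0.21 in LAr (SD, n = 5 each). In SpD it was -1.97 ± 1.86 (SD, n = 5), and -1.17 ± 0.63 (SD, n = 4) without K130, whose own value was -5.15. LAr was the tightest group, from -0.72 to -0.21, and K113 fell outside it at -1.23.

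Genes most like each of the 8 were taken as the 3 with a symbol and the highest Pearson's r over the 29 animals. Slc12a1 was matched by Pla1a (0.96), Mfsd4a (0.96) and Qpct (0.95), and Umod by Slc6a18 (0.90), Nrk (0.88) and Bmp6 (0.87). Bsnd had Hk1 (0.91), Orai2 (0.91) and Pkm (0.90), and Hk1 and Pkm encode enzymes of glycolysis. For Slc12a3 they were Sall3 (0.91), Atp2b4 (0.91) and Emx1 (0.90), although rho was only 0.60, 0.68 and 0.70 and r over 28 animals 0.79, 0.83 and 0.81. Wnk1 was followed by Znrf3 (0.85), Cnnm2 (0.81) and Slit2 (0.81), and Wnk4 by Trim41 (0.79), Iqank1 (0.78) and Tom1l2 (0.76). Stk39 was followed by Cd59 (0.89), Aif1l (0.88) and Fam131c (0.88), and Oxsr1 by Smchd1 (0.75), Golga3 (0.75) and Ankfy1 (0.73).

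A list of 59 further genes of the same segments, of which 52 were in the table, gave 17 genes at q under 0.05 across the states and 2 at q under 0.001. The shares of all genes were 46.1% and 9.34%. The 2 were catalytic subunits of calcineurin, a phosphatase that acts on the distal kinase pathway. Ppp3cc (q = 1.46e-04, limma) read 8.29 ± 0.14 (SD, n = 4) in SA and 8.57 ± 0.26 in SpD, against 8.81 ± 0.06 in IBA, 8.82 ± 0.13 in Ent, 8.93 ± 0.08 in EAr and 8.99 ± 0.15 in LAr (SD, n = 5 each). Ppp3ca (q = 1.72e-04, limma) peaked in EAr at 10.40 ± 0.08 (SD, n = 5) and was lowest in IBA at 10.10 ± 0.12 (SD, n = 5).

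Between seasons 15 of the 52 genes passed q under 0.05, most of them lower in hibernation. Lower in hibernation were 12, against 16.8% of all genes, and higher were 3, against 16.6%. The median difference over the list was -0.10, against 0.000242 over all genes. At q under 0.001 there were 2 lower, against 5.29% of all genes, and 1 higher, against 4.43%. Slc8a1, the Na-Ca exchanger of the distal tubule, was lower by 1.04 ± 0.21 (SE; difference -1.04, q = 6.71e-04, limma), and Slc9a3, an apical Na-H exchanger, by 0.61 ± 0.12 (SE; difference -0.61, q = 3.64e-04). Ppp3cc was higher by 0.45 ± 0.06 (SE; q = 1.11e-05). These 3 calls at q under 0.001 became 1 without K138, K139, K140 or K3, and 5 without K130. Calls among all genes went from 1251 to 898, 875 and 1052 without K138, K139 and K140, and to 1302 without K130.

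By role, the lower genes at q under 0.05 included the thick limb potassium channel Kcnj1, at -0.44 ± 0.13 (SE), and the sodium-permeable junction protein Cldn10, at -0.42 ± 0.09. Of the receptors and hormones, Egf, at -0.58 ± 0.15, Avpr2, the vasopressin receptor, at -0.51 ± 0.15, and Kl, at -0.46 ± 0.15, were lower, as was the calcium-sensing receptor Casr, at -0.28 ± 0.10. Atp1b1, of the sodium pump, differed by -0.20 ± 0.07. In the distal convoluted tubule the magnesium channel Trpm6 differed by -0.47 ± 0.12. Of the regulators and transcription factors Sgk1, an aldosterone-induced kinase, differed by -0.38 ± 0.11 and Irx1 by -0.43 ± 0.14, while Maged2, which favours both cotransporters, was higher by 0.17 ± 0.04 and Ppp3ca by 0.10 ± 0.03. The seasons overlapped even for Ppp3cc, with 8.15 to 8.87 in the active animals and 8.67 to 9.13 in hibernation. Season differences of these genes without K130 are not given, so whether they rest on K130 is not shown. Without K130, q across the states (limma) rose from 0.0175 to 0.0632 for Kcnj1 and from 0.0154 to 0.0838 for Egf. For Avpr2 it rose from 0.0392 to 0.192. Among the lower genes of this paragraph it fell only for Kl (0.0504 to 0.003) and Trpm6 (0.0305 to 0.0162).

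**Figure D5:**
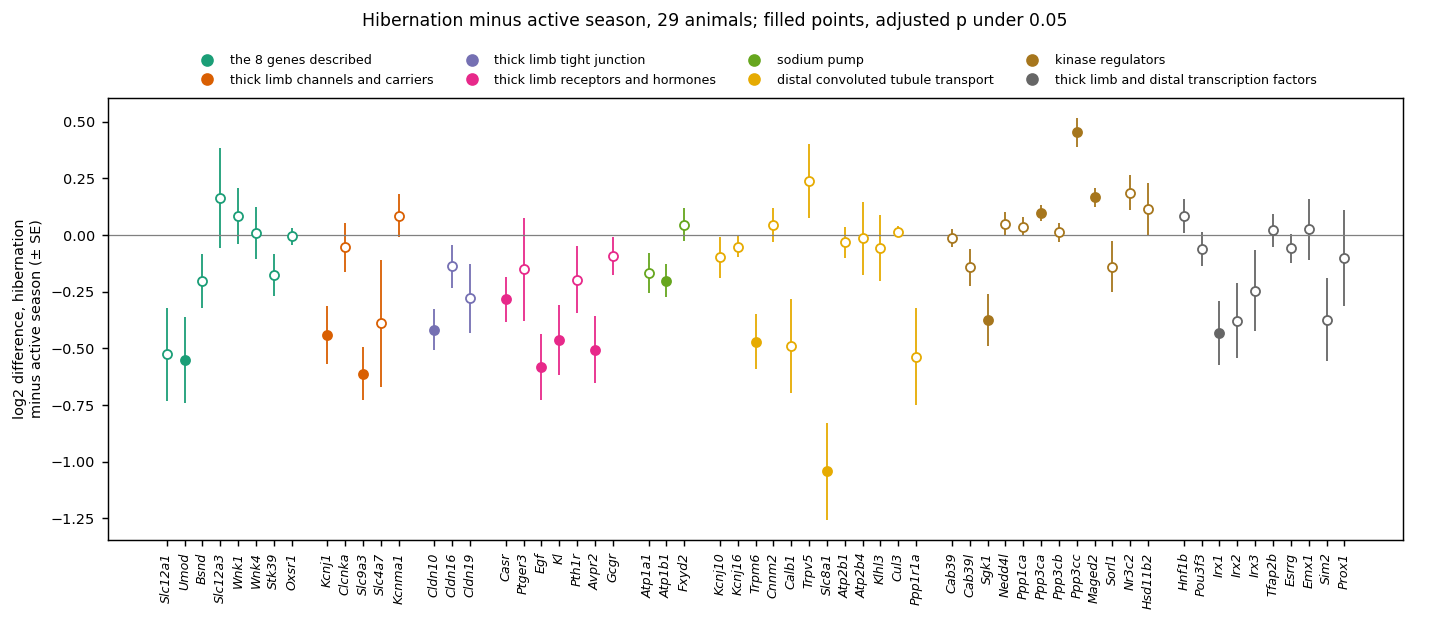
Difference of hibernation minus active season (log2, vertical axis, ± SE) for the 8 genes and for the 52 listed genes by role, in 29 animals, with filled points at q under 0.05. Slc12a1 and Umod lie near -0.5 with Egf, Slc9a3 and Kcnj1, and Slc12a3, Wnk1, Wnk4 and Oxsr1 lie near 0.

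Sex did not pass q under 0.05 for any of the 8 genes. The male minus female difference with the lowest q was that of Umod, -0.41 ± 0.18 (SE), q = 0.742 (limma), with 28 genes of the table past that threshold. The term for experiment did not pass for any of the 8 either, with values from -0.41 ± 0.29 (SE) for Slc12a3 to 0.31 ± 0.16 (SE) for Bsnd. It passed for 5 genes of the table. The values had already been set to the same mean in both experiments, so this term cannot show whether the experiments differed.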

How the data were processed

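Kidney RNA of the 31 animals analysed here was sequenced in 2 experiments, and a further SA animal that the study set aside was not analysed here. The authors used cutadapt for trimming and HISAT2 to set aside mitochondrial reads, quantified the rest with Salmon against the HiC_Itri_2 annotation, and deposited log2 values, namely DESeq2 rlog values corrected for experiment with limma. The deposited log2 values carry no counts, so depth is unknown and no count test was run. Because the correction set both experiments to the same mean for every gene, and the experiments hold different states, the state means keep a remainder of it. Each sample is 1 animal, and p-values weigh the differences between states against the spread between animals, as limma estimates it.

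Here limma 3.58.1 (R 4.3.3) was fitted to all 12863 genes with state, sex and experiment as terms and a trended prior variance, and p-values were adjusted by the method of Benjamini and Hochberg over all genes (q). Calls used q under 0.001, the study's threshold, and q under 0.05 as a second one. Season was the mean of IBA, Ent, EAr and LAr minus the mean of SA and SpD. The 8 genes, the 59 listed genes and the marker lists were chosen with earlier results of these data known. All 8 genes are named, with the 3 genes most like each, the listed genes past a threshold, and Slc14a2. The 8 further pairs of states were added after the values had been seen. Alternatives were other sets of animals, experiment 2 alone, no term for experiment, animal weights, centring, a filter at a mean of 8, a prior without trend, Slc14a2 as a covariate, and leaving out each animal. The fits were tested on simulated data. Python 3.11.15 and matplotlib 3.10.9 drew the plots, and 0 columns of the table were unmatched.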

Additional observations from a re-analysis of the deposited data

Results flagged for a closer look

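In 6 of the 48 groups formed by the 8 genes and 6 states (all 31 animals), 1 animal lay farther from the others than Dixon's 95% critical value allows. For independent groups chance alone gives about 1 in 20. These groups are not independent, because the 8 genes share animals, and the share over all genes was not computed. The count therefore does not show an excess particular to these genes. Slc12a3 read 11.536 in the SpD animal K130, against 13.672 to 14.299 in the others. K140 of SA was low for Umod, at 14.599 against 15.607 to 16.015, and for Stk39, at 8.92 against 9.3152 to 9.38. Slc12a1 read 14.003 in K167 of Ent, against 14.928 to 15.261. Wnk1 read 13.977 in K165 of EAr, against 13.755 to 13.811. Oxsr1 read 10.63 in K113 of LAr, against 10.865 to 10.932.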

How the results depend on the processing

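None of the 8 genes passed q under 0.001 (limma) across the states, in the 7 pairs or between seasons under any alternative run. With the threshold at q under 0.05, 1 gene passed across the states, 1 in IBA minus LAr and 1 between seasons. At that threshold the counts moved with the samples and the fit. Experiment 2 alone, with K130 and K84 as its only SpD animals, gave 4 of 8 across the states and 4 in SA minus SpD. It gave 0 in IBA minus LAr and 5 between seasons. Animal weights gave 2 across the states, 3 in IBA minus LAr and 0 between seasons. Shares of all genes in these fits are given above. Leaving out 1 animal gave 0 (K130) to 2 (K140, K167, K2 or K5) across the states, 0 (K104) to 3 (K171) in IBA minus LAr, 0 (K130, K138, K139 or K84) to 2 between seasons, 0 to 2 in SA minus SpD, and 0 to 1 in SpD minus IBA and in IBA minus SA. The calls among all 12863 genes moved as well. Across the states they numbered 5924 in 29 animals, and 5423, 5405 and 6078 without K130, K140 and K167. In IBA minus LAr they numbered 2310, and 1396 without K104. Between seasons they numbered 4294, and 4237, 3666 and 3732 without K130, K138 and K139. In SA minus SpD they numbered 1348, and 1647, 951 and 1708 without K1, K138 and K167. In SpD minus IBA they numbered 1531, and 1198 and 1795 without K104 and K130. In IBA minus SA they numbered 2942, and 2424 and 3038 without K138 and K167. Such calls are not given for K2, K5 and K84, nor for K171 in IBA minus LAr. Those counts therefore show nothing particular to the 8 genes. With Slc14a2 as a covariate, Slc12a1 in SpD minus LAr reversed from 1.15 to -0.19 (q = 0.731). Slc14a2 did not overlap between SpD and LAr, so that fit cannot tell state and marker apart in this pair. No other reversal was seen among the differences followed through the alternatives. Those were the ones past p under 0.05 in the 7 pairs or between seasons, or past q under 0.05 in the 8 further pairs. Slc12a1 in IBA minus LAr was not among them, and with this covariate it reversed as well. The cause was not tested. The listed genes called at q under 0.001 across the states numbered 2, and 4 in 28 animals, 1 without a term for experiment and 5 with animal weights. Of all 12863 genes, 1201, 1189, 1004 and 2436 were called in the same order. Between seasons the listed genes called numbered 3, and 5 in 28 animals and 6 in experiment 2 alone, against 1251, 1302 and 1238 of all genes. No paired analysis was possible because replicate numbers only name animals, and no label ties an animal of one state to an animal of another. Without counts, the precision of each animal's value is unknown.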
